A study of Mus musculus with 12 samples.

Results

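Slc11a2, Cybrd1, Slc40a1, Heph, Tfrc, Fth1, Ftl1, Epas1 and Ireb2 take up, export, store or control iron in the lining of the gut. These 9 genes were found by their symbols in the deposited table, where all 9 of 9 were present among 16942 genes. All 9 also passed the filter on low counts, which left 12329 genes for testing. The RNA came from small intestine of outbred ICR mice and was sequenced as 12 libraries, 3 in each of 4 groups. AOS0 had no busulfan and an AOS level of 0, AOS10 had no busulfan and a level of 10, B+A0 had busulfan and a level of 0, and B+A10 had busulfan and a level of 10. Busulfan damages DNA by alkylation and is toxic to dividing cells. The labels do not spell out AOS, and they state no unit, route, age, sex or time. All sample titles begin with W5, which the labels do not explain. Nor do they state that replicate libraries are different mice. The p-values therefore speak only of the variation among these libraries, which may be technical.

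Iron in the diet is reduced at the tip of the enterocyte, the absorptive cell of the villus, and carried in through its brush border. It is then either stored in ferritin or exported to the blood through the opposite, basolateral face. When cells are short of iron, iron regulatory proteins bind hairpins called iron-responsive elements in messenger RNAs, where they block translation from a 5′ untranslated region (UTR) or protect the RNA from decay through a 3′ UTR. The hypoxia-inducible factor encoded by Epas1 raises transcription of the intestinal uptake and export genes when iron or oxygen is low.

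Iron-responsive elements are the feature that ties several of these genes together, so the hairpins found in their transcripts are shown here. The GENCODE M21 transcripts of protein-coding genes were searched on the sense strand for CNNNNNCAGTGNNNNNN, a bulged C, 5 bases, a loop of 6 letters (CAGTGN, with the last base not G) and 5 bases that pair with the first 5. At least 4 of 6 pairs were required in the stem below, and 1 extra base was allowed on the 3′ side. A match in a UTR was found for 6 of the 9 genes and for 40 of 21899 protein-coding genes, or 0.183% of them. Without the extra base 12 genes matched, or 0.0548%. No match was found for Cybrd1, Heph or Ireb2. Each hairpin is written 5′ to 3′ with the loop in capitals, and its letters were read from the GENCODE transcripts.
Slc40a1, 5′ UTR: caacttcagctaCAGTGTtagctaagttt
Fth1, 5′ UTR: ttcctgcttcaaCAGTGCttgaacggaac
Ftl1, 5′ UTR: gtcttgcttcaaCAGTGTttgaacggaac
Epas1, 5′ UTR: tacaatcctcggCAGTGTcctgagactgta
Slc11a2, 3′ UTR: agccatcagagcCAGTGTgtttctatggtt
Tfrc, 3′ UTR, hairpin 1: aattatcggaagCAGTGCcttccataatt
Tfrc, 3′ UTR, hairpin 2: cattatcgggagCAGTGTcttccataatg
Tfrc, 3′ UTR, hairpin 3: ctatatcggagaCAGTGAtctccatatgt
Tfrc, 3′ UTR, hairpin 4: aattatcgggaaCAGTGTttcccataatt

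On GRCm38 these lie at chr1:45925465-45925493 (Slc40a1, minus strand), chr19:9982732-9982760 (Fth1, plus strand), chr7:45459779-45459807 (Ftl1, minus strand), chr17:86753768-86753797 (Epas1, plus strand) and chr15:100395152-100395181 (Slc11a2, minus strand). The 4 Tfrc hairpins lie on the plus strand at chr16:32631219-32631247, chr16:32631598-32631626, chr16:32631663-32631691 and chr16:32631710-32631738. Those of Slc11a2 and Epas1 carry the extra base, and the Epas1 hairpin lies upstream of that gene's RefSeq start. A match describes letters that can pair, and the counts below give RNA levels, not translation.

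Levels were compared between genes as FPKM, fragments scaled by transcript length and library total, the unit of the deposited expression values. The 2 ferritin chains were the most abundant of the 9 by far. Fth1, the heavy chain, which oxidizes iron as it is stored, had 1973 ± 129 FPKM (SD, n = 12 libraries) and stood above 99.8% of all genes in the table. Ftl1, the light chain, had 1418 ± 118 FPKM and stood above 99.7%. Both were expressed far above Tfrc, the receptor that brings in transferrin-bound iron, at 39.9 ± 8.32 FPKM. Heph, the ferroxidase of the basolateral face, had 27.7 ± 4.0 FPKM and Slc11a2, the brush-border iron importer, had 21.7 ± 1.38. Ireb2, which encodes an iron regulatory protein, and Slc40a1, which encodes the exporter ferroportin, both had 10.3 FPKM, with SDs of 1.76 and 4.43. Epas1 had 2.75 ± 0.27 FPKM. Cybrd1, the duodenal ferric reductase, was lowest at 0.23 ± 0.070 FPKM, which rests on 11 to 32 counts a library. In 3 pairs of neighbours in this order the ranges over libraries overlapped. Tfrc was nevertheless above Heph in 12 of 12 libraries, Heph was above Slc11a2 in 10, and Ireb2 was above Slc40a1 in 7.

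**Figure D1:**
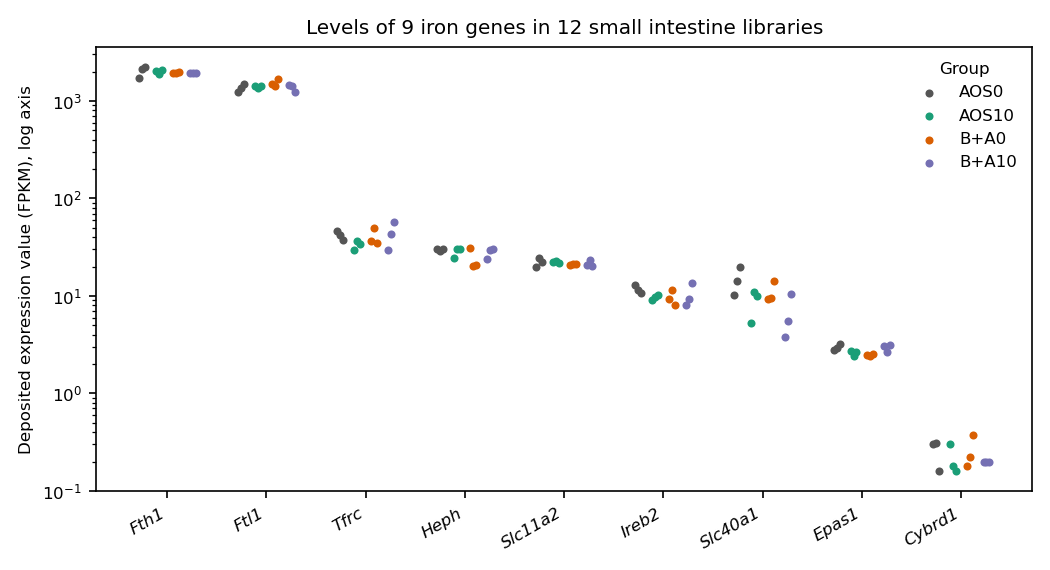
Deposited expression value (FPKM, log axis) of each gene in each of the 12 libraries, coloured by group, with genes ordered by mean level. Fth1 and Ftl1 lie between 1236 and 2222 FPKM, and Cybrd1 lies between 0.16 and 0.37.

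Differences between libraries were compared as counts scaled to library total (CPM) and by the trimmed mean of M-values (TMM). Slc40a1 varied most among the 9, with a coefficient of variation of 42.9% over the 12 libraries and a highest library 5.14 times the lowest. Cybrd1 followed at 30.3%, at a level where few counts limit precision. The steadiest were Fth1 at 7.26%, Slc11a2 at 7.93% and Epas1 at 9.59%.

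The libraries carried RNA of the absorptive epithelium, which is where these genes act. The 10 enterocyte markers, among them Vil1, were detected in every library and summed to 10674 to 21827 CPM. Markers of both ends of the small intestine were present, with summed levels of 3207 to 7127 CPM for 10 proximal genes such as Gata4 and Lct, and 1173 to 2439 CPM for 10 distal genes such as Fabp6. The labels name no segment. Total counts ranged from 13560232 to 16818245 a library. In a principal component analysis, B+A0 replicates 2 and 3 lay apart from the rest on the first component (28.4% of the variance) at 25.9 and 38.7, whereas B+A0 replicate 1 lay at 6.25. The same 2 libraries had the lowest enterocyte marker sums, 10674 and 10816 CPM, against 20147 in B+A0 replicate 1. In such tissue RNA, fewer cells of a type and less RNA per cell cannot be told apart.

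None of the 9 genes passed the threshold (adjusted p under 0.05, edgeR quasi-likelihood test, adjusted over all 12329 genes) in any of the 6 comparisons, and none passed with DESeq2 or with limma. In B+A0 against AOS0, the effect of busulfan without AOS, 0 of 9 were called where 3.64% of all tested genes were. That share stands for 449 genes, a number that leaving out single libraries moved widely: it fell to 21 if B+A0 replicate 3 was dropped and reached 1099 if B+A0 replicate 1 was. In B+A10 against AOS10, the effect of busulfan with AOS, 0 of 9 were called beside 0.162% of all genes. In AOS10 against AOS0 and in B+A10 against B+A0, the effect of AOS without and with busulfan, 0 of 9 were called and 0% of all genes were, although DESeq2 called 63 and 76 genes. In B+A10 against AOS0, 0 of 9 were called beside 0.957% of all genes. The interaction, which asks whether the effect of busulfan differed with AOS, called 0 of 9 and 0% of all genes, against 17 genes by DESeq2. An unadjusted p under 0.05 was reached by edgeR for 1 gene in each of B+A10 against B+A0 (Epas1), B+A10 against AOS0 (Slc40a1) and the interaction (Epas1), and for none in the other 3 comparisons. The corresponding shares of all tested genes were 9.81%, 15.7% and 6.85%. In the 3 comparisons with none of the 9, they were 22.1% (B+A0 against AOS0), 10.2% (B+A10 against AOS10) and 6.23% (AOS10 against AOS0). Median log2 fold changes of the 9 genes, in the order of comparisons above, were -0.08, -0.02, -0.16, 0.06, -0.03 and 0.01, beside medians over all tested genes between -0.01 and 0.01. Several of these comparisons share a group, so they are not independent.

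**Figure D2:**
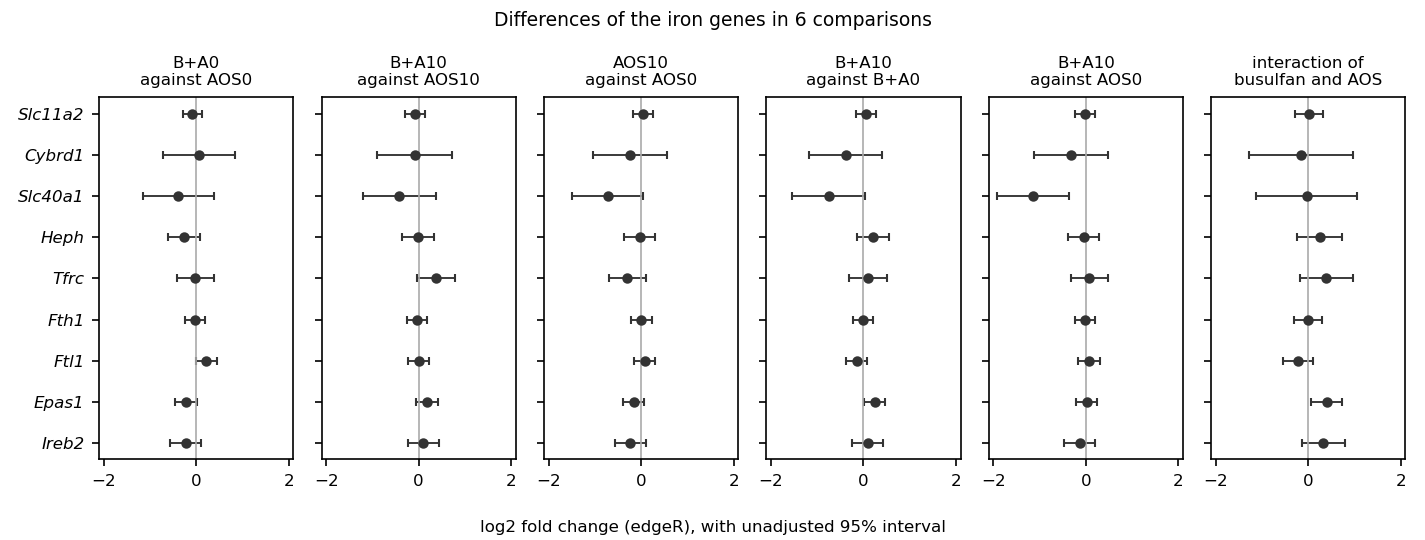
Log2 fold change from edgeR with its unadjusted 95% interval (bars) for the 9 genes in each of the 6 comparisons. Most points lie near 0, and Slc40a1 in B+A10 against AOS0 lies farthest from it at -1.14.

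No comparison of the brush-border uptake genes passed the test. Slc11a2 (gene ID 18174, GRCm38 chromosome 15, 100387898 to 100424209), the divalent metal transporter that carries ferrous iron into the cell, was at 65.6, 82.4 and 78.0 CPM in the 3 AOS0 libraries, 76.9, 80.0 and 76.8 in AOS10, 72.6, 69.5 and 71.4 in B+A0, and 71.8, 83.7 and 66.7 in B+A10. All pairs of groups compared overlapped. Its log2 fold change was -0.08 in B+A0 against AOS0 (95% interval -0.29 to 0.13) and 0.06 in B+A10 against B+A0 (-0.16 to 0.27), so a change of 1 log2 unit lies outside both intervals. Cybrd1 (gene ID 73649, chromosome 2, 71118054 to 71142926) was at 0.801 to 1.94 CPM, with all groups overlapping. With so few counts its intervals were wide, from -0.71 to 0.84 in B+A0 against AOS0, and a difference within them was not detectable at this depth.

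Ferroportin, the exit route for absorbed iron, had the largest fold changes of the 9 genes in the 5 comparisons between groups, without passing the test. Slc40a1 (gene ID 53945, chromosome 1, 45908070 to 45926532) was at 31.9, 45.2 and 64.8 CPM in AOS0, 17.3, 35.9 and 32.6 in AOS10, 31.1, 30.2 and 46.9 in B+A0, and 12.6, 18.3 and 33.2 in B+A10. The highest library was in AOS0 and the lowest in B+A10, but all pairs of groups overlapped; between B+A10 and AOS0 the overlap came down to B+A10 replicate 3 (33.2) against AOS0 replicate 1 (31.9). In B+A10 against AOS0 none of the 9 genes was free of overlap, whereas 17.9% of all tested genes were. Group means were 47.3 ± 16.5 CPM in AOS0, 28.6 ± 9.91 in AOS10, 36.1 ± 9.40 in B+A0 and 21.4 ± 10.7 in B+A10 (SD, n = 3).

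In B+A10 against AOS0 the log2 fold change of Slc40a1 was -1.14 (SE 0.36, 95% interval -1.92 to -0.36, unadjusted p = 0.00756, adjusted p = 0.145, edgeR). Over 14 alternative fits it ranged from -1.61 to -0.84, with adjusted p-values from 0.0298 to 0.45. Of these fits, 2 passed the threshold. Without B+A10 replicate 3 the log2 fold change was -1.61 (adjusted p = 0.0325, edgeR), and with the replicate number as a block it was -1.18 (adjusted p = 0.0298, edgeR). The first fit called 763 of 12498 tested genes and the second 83 of 12329, against 118 in the main fit. Mean Slc40a1 levels were lower at the AOS level of 10 both without and with busulfan. The log2 fold change was -0.73 in AOS10 against AOS0 (SE 0.36, adjusted p = 0.802, edgeR) and -0.75 in B+A10 against B+A0 (SE 0.36, adjusted p = 0.522, edgeR), which use different libraries. Their difference, the interaction, was -0.03 with a 95% interval of -1.12 to 1.06. Macrophages also export iron through ferroportin. Of 10 macrophage markers, Cd163 and Adgre1 were at 0 in most libraries, and Mertk alone carried most of the summed level. That sum was 45.2 to 57.7 CPM in AOS0, 51.1 to 59.9 in AOS10, 52.8 to 66.2 in B+A0 and 74.0 to 89.2 in B+A10. The sum was thus highest in the group where Slc40a1 was lowest, through Mertk. Cd68, Csf1r, C1qa, C1qb and C1qc did not rise from AOS0 to B+A10. Mean CPM was 1.44 and 1.39 for Cd68, 0.50 and 0.45 for Csf1r, 0.57 and 0.31 for C1qa, 0.28 and 0.14 for C1qb, and 0.23 and 0.16 for C1qc. From B+A0 to B+A10, where mean Slc40a1 was also lower, these same markers were higher. Mean CPM was 0.97 and 1.39 for Cd68, 0.23 and 0.45 for Csf1r, and 0.14 and 0.31 for C1qa. For C1qb it was 0.08 and 0.14, and for C1qc 0.06 and 0.16. Mrc1 was lower, at 0.41 and 0.33. Mean Slc40a1 was also lower in AOS10 and in B+A0 than in AOS0, and so were several of these markers. Mean CPM in AOS0, AOS10 and B+A0 was 1.44, 0.76 and 0.97 for Cd68 and 0.50, 0.41 and 0.23 for Csf1r. For C1qa it was 0.57, 0.21 and 0.14, for C1qb 0.28, 0.28 and 0.08, and for C1qc 0.23, 0.13 and 0.06. Mertk, Mrc1 and the barely detected Fcgr1 were higher in both groups than in AOS0. The part of macrophages in the result was not tested.

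**Figure D3:**
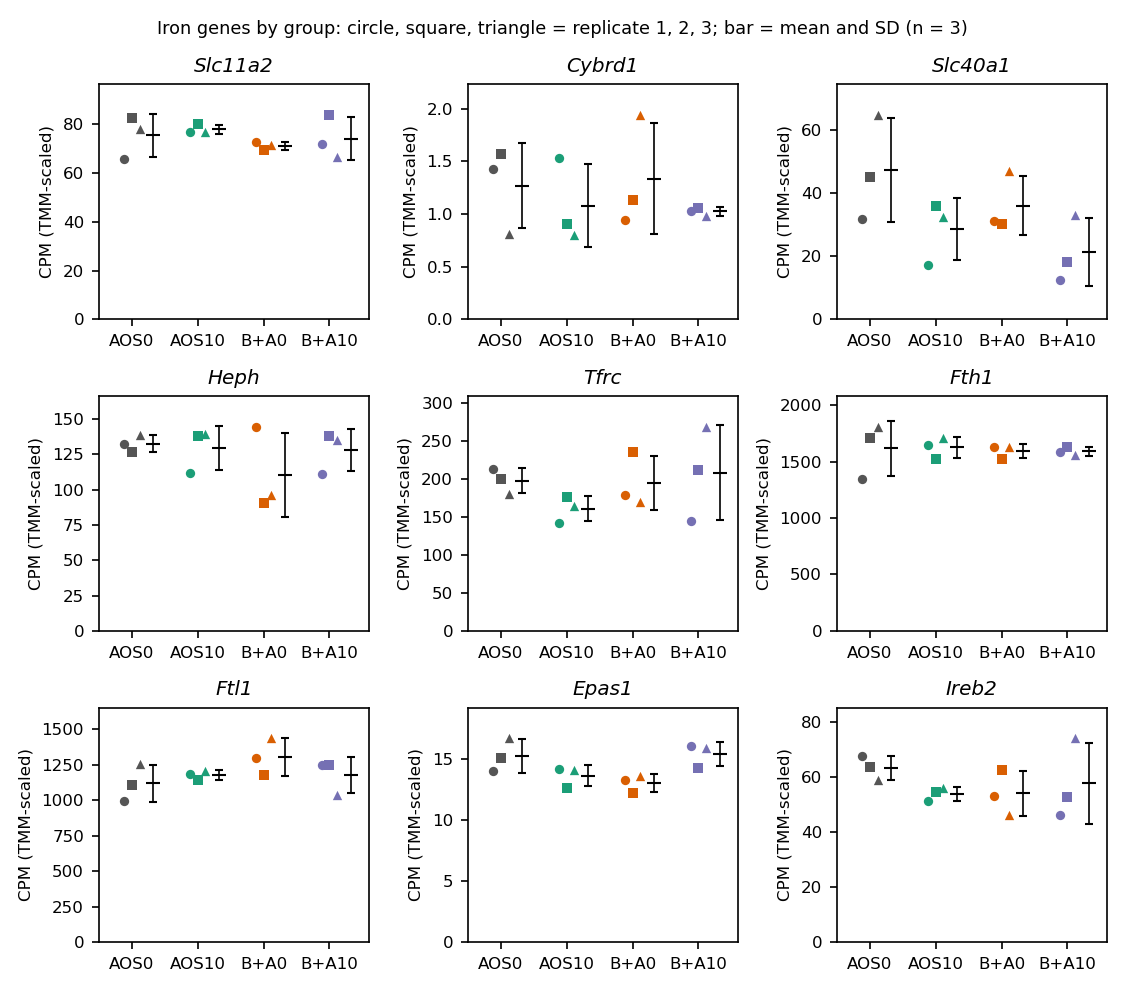
TMM-scaled CPM of each gene in each library (circle, square and triangle are replicates 1, 2 and 3), with the mean and SD of each group (n = 3) beside the points. Slc40a1 spreads from 12.6 to 64.8 CPM, while Slc11a2 stays between 65.6 and 83.7.

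Hephaestin, the copper-dependent oxidase that converts iron so that transferrin can carry it, differed mainly within B+A0. Heph (gene ID 15203, chromosome X, 96455436 to 96574485) was at 132.2, 126.8 and 138.4 CPM in AOS0, 111.7, 138.0 and 139.1 in AOS10, 144.5, 90.3 and 96.2 in B+A0, and 110.7, 137.6 and 135.3 in B+A10. The lowest and the highest of all 12 values both came from B+A0. Replicates 2 and 3 of that group, the 2 libraries with the lowest enterocyte marker sums, were the low ones. Other libraries did not follow this order. The next lowest Heph values, in B+A10 replicate 1 and AOS10 replicate 1, came with enterocyte sums of 17862.5 and 19899 CPM. B+A10 replicate 3, at 135.3 CPM, had a sum of 13660.8. In B+A0 against AOS0 the log2 fold change was -0.26 (SE 0.16, 95% interval -0.61 to 0.08, adjusted p = 0.36, edgeR). Without B+A0 replicate 1 it was -0.50 (SE 0.12, adjusted p = 0.0269, edgeR), past the threshold. That fit called 1099 of 12496 tested genes, against 449 in the fit of all libraries. The part of the enterocyte share in the Heph difference was not tested.

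Transferrin receptor RNA, which iron regulatory proteins protect when iron is scarce, was most spread in B+A10. Tfrc (gene ID 22042, chromosome 16, 32608896 to 32632794) was at 212.5, 200.1 and 179.7 CPM in AOS0, 142.4, 175.8 and 164.2 in AOS10, 179.1, 235.0 and 170.0 in B+A0, and 144.1, 211.9 and 268.5 in B+A10. All AOS10 libraries were below all AOS0 libraries, and the other pairs of groups compared overlapped. The FPKM ratio of Tfrc to Slc40a1 was 1.88 to 4.50 in AOS0 and 3.32 to 5.59 in AOS10. It was 2.46 to 5.27 in B+A0 and 5.48 to 7.81 in B+A10. B+A10 lay wholly above AOS0 and B+A0 in this ratio and overlapped AOS10. Against AOS0 and against B+A0, the exact two-sided permutation test gave p = 0.1 each (the smallest possible, and 0.333 adjusted over 10 tests). For Tfrc alone, the log2 fold change in AOS10 against AOS0 was -0.30 (SE 0.19, 95% interval -0.70 to 0.11, adjusted p = 0.805, edgeR). Groups did not overlap in that comparison, in the same direction, for Tfrc and Ireb2, 2 of the 9 genes, where 9.67% of all tested genes were lower without overlap.

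Heavy-chain ferritin RNA was steady. Fth1 (gene ID 14319, chromosome 19, 9980600 to 9985111) was at 1345, 1705 and 1809 CPM in AOS0, 1650, 1525 and 1708 in AOS10, 1628, 1524 and 1628 in B+A0, and 1583, 1630 and 1556 in B+A10. Apart from AOS0 replicate 1, which was the lowest, the libraries lay close together and all groups overlapped. Fold changes on the log2 scale lay between -0.03 and 0.01 in the 6 comparisons, and the 95% interval in B+A0 against AOS0 was -0.24 to 0.19.

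The light chain was higher on average in B+A0. Ftl1 (gene ID 14325, chromosome 7, 45457944 to 45459886) was at 995.1, 1108 and 1258 CPM in AOS0, 1189, 1143 and 1210 in AOS10, 1301, 1177 and 1438 in B+A0, and 1252, 1248 and 1035 in B+A10. B+A0 and AOS0 overlapped, through B+A0 replicate 2 and AOS0 replicate 3. The log2 fold change was 0.22 (SE 0.11, 95% interval -0.01 to 0.45, adjusted p = 0.251, edgeR). Ftl1 counts were not whole numbers in 100% of libraries, and those of Cybrd1 in 41.7%, whereas those of Fth1 were whole in all of them. Counts of this kind can divide reads between similar sequences, so the level of Ftl1 is uncertain.

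The ratio of heavy to light chain, from FPKM, was 1.40, 1.59 and 1.49 in AOS0 and 1.29, 1.34 and 1.17 in B+A0. These groups did not overlap, but 3 against 3 libraries cannot give a p below 0.1, and the exact two-sided permutation test gave p = 0.1 (0.333 when adjusted over 10 tests of 2 ratios). AOS10 had ratios of 1.38 to 1.46 and B+A10 of 1.31 to 1.55, which overlapped (exact permutation p = 0.9). The summed ferritin level was 3387 ± 384 FPKM in AOS0, 3391 ± 140 in AOS10, 3476 ± 153 in B+A0 and 3313 ± 105 in B+A10 (SD, n = 3). Ferritin RNA in total thus differed between groups by less than the spread within AOS0.

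Epas1, which encodes the oxygen- and iron-sensitive HIF-2α, was lower in busulfan libraries without AOS and higher in busulfan libraries with it, at differences that did not pass the test. Epas1 (gene ID 13819, chromosome 17, 86753864 to 86833410) was at 14.0, 15.1 and 16.7 CPM in AOS0, 14.2, 12.6 and 14.1 in AOS10, 13.3, 12.2 and 13.6 in B+A0, and 16.1, 14.3 and 15.9 in B+A10. All B+A0 libraries lay below all AOS0 libraries, and all B+A10 libraries lay above all AOS10 and all B+A0 libraries in TMM-scaled CPM. The separation from AOS10 depends on the scaling: in the deposited FPKM, B+A10 replicate 2 (2.64) lay below AOS10 replicates 1 (2.71) and 3 (2.68), so those groups overlapped. On the CPM scale it was the only one of the 9 genes without overlap in these 3 comparisons, where 14.6% of all tested genes were lower without overlap in B+A0 against AOS0. The shares higher without overlap were 7.97% in B+A10 against AOS10 and 4.83% in B+A10 against B+A0. The log2 fold changes in the order just given were -0.22 (SE 0.11, adjusted p = 0.245, edgeR), 0.18 (SE 0.11, adjusted p = 0.634) and 0.24 (SE 0.11, adjusted p = 0.506). The interaction was 0.40 (SE 0.15, 95% interval 0.07 to 0.73, unadjusted p = 0.0214, adjusted p = 0.67, edgeR). B+A10 and AOS0 had nearly the same mean, 15.4 ± 0.999 and 15.3 ± 1.37 CPM (SD, n = 3). The summed level of 10 T and natural killer cell markers was also low in B+A0, at 38.7 to 104.8 CPM, against 162 to 279 in AOS0, 152 to 195 in AOS10 and 95.7 to 267 in B+A10, and its part in the Epas1 values was not tested.

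Ireb2, whose protein is degraded when iron is plentiful, was highest on average without either treatment. Ireb2 (gene ID 64602, chromosome 9, 54862658 to 54912534) was at 67.7, 63.6 and 58.9 CPM in AOS0, 51.3, 54.6 and 56.2 in AOS10, 53.2, 62.8 and 46.3 in B+A0, and 46.1, 52.9 and 74.2 in B+A10. AOS10 lay wholly below AOS0, and both the lowest and the highest library belonged to B+A10. The log2 fold change in AOS10 against AOS0 was -0.23 (SE 0.15, 95% interval -0.56 to 0.10, adjusted p = 0.807, edgeR).

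Across the 12 libraries, whatever their group, Ireb2 followed Tfrc and opposed Ftl1. The relation of log2 CPM between Ireb2 and Tfrc had a Pearson r of 0.82 and a Spearman rho of 0.78 (permutation p = 0.0012 and 0.00378). Over the 45 relations computed, the adjusted permutation p-values were 0.027 and 0.0949. With B+A0 replicate 2 and B+A10 replicate 3 left out r was 0.68, and for deviations from the group means it was 0.92. B+A10 replicate 3 held the highest value of both genes, and B+A10 replicate 1 was low in both.

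Between Ireb2 and Ftl1 r was -0.83 and rho was -0.74 (permutation p = 0.00095 and 0.00727, adjusted 0.027 and 0.109). With AOS0 replicate 1 and B+A0 replicate 3 left out r was -0.76, and for deviations from the group means it was -0.85. Of the 12328 other tested genes, 3.34% had an r with Ireb2 as high as that of Tfrc, and 1.7% one as low as that of Ftl1. Seen from the other gene, 1.01% had an r with Tfrc as high as that of Ireb2, and 0.552% one with Ftl1 as low.

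The transcripts of these 3 genes differ in length, with 5585 bases for Ireb2, 4783 for Tfrc and 841 for Ftl1, as implied by the deposited counts and FPKM. Libraries also differed in how long transcripts stood against short ones. The median deviation of the longest genes (from 3969 bases, n = 2535) minus that of the shortest (up to 1614 bases, n = 2535) ranged from -0.12 on the log2 scale in B+A0 replicate 3 to 0.21 in B+A10 replicate 3. The correlation of that contrast with Ireb2 was r = 0.72, with Tfrc r = 0.74 and with Ftl1 r = -0.68, and none passed after adjustment over the 45 relations (adjusted permutation p = 0.0757, 0.0757 and 0.16). For deviations from the group means, r was 0.92, 0.82 and -0.84. With those 2 libraries left out, r was 0.29, 0.61 and -0.34, so the pooled values for Ireb2 and Ftl1 rest largely on them. The part of the contrast in the relations between the 3 genes was not tested.

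**Figure D4:**
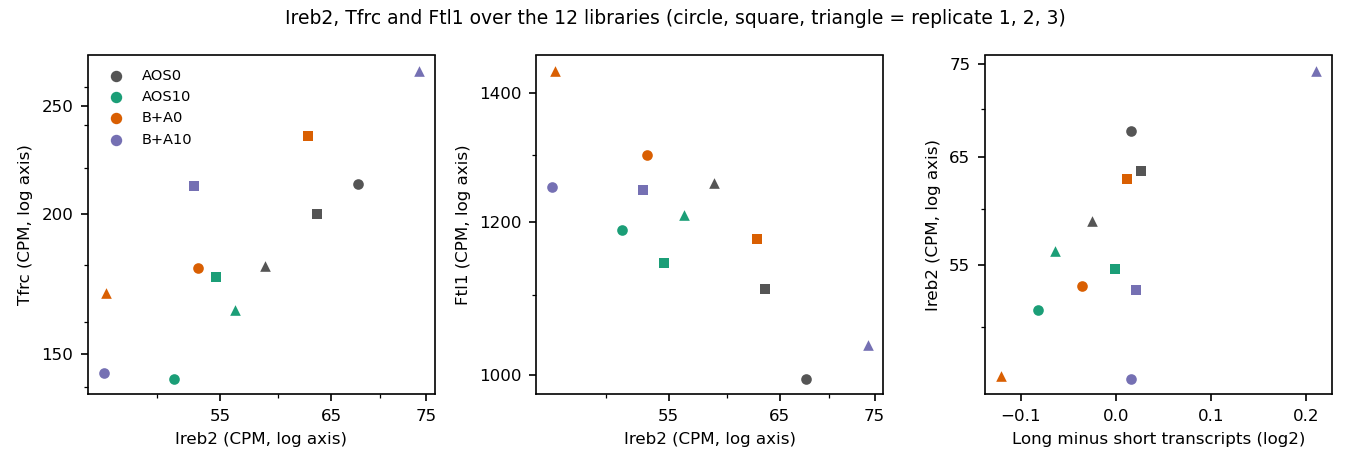
Tfrc against Ireb2 and Ftl1 against Ireb2 (CPM, log axes), and Ireb2 against the long-minus-short transcript contrast (log2), 1 point per library, coloured by group with the replicate as the shape. Tfrc is higher and Ftl1 lower in libraries with more Ireb2, and B+A10 replicate 3 lies at the far right of the contrast at 0.21.

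Among the other pairs of the 9 genes, none had an adjusted permutation p under 0.05 in either measure. Slc11a2 and Fth1 had r = 0.64 and rho = 0.64 (permutation p = 0.0214 and 0.0283, adjusted 0.16 and 0.255). Cybrd1 and Heph had r = -0.57 and rho = -0.78 (permutation p = 0.0487 and 0.00422, adjusted 0.313 and 0.0949), with Cybrd1 at few counts. Slc40a1 was close to unrelated to Ftl1 (r = 0.01) and to Slc11a2 (r = 0.03).

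For each gene, the genes with the most similar pattern were taken from 9755 with a mean of at least 5 CPM, by Pearson r of log2 CPM over the 12 libraries. Slc11a2 was most like Klhl26 (r = 0.91) and Rab4a (0.90), and Slc40a1 was most like Atp5mpl (0.93) and Pdxdc1 (0.91). Cybrd1 was most like Cntrob (0.91) and Shmt1 (0.89). For Heph these were Dpp4, a brush-border peptidase (0.94), and Lmo7 (0.94). Tfrc had Man2a1 (0.94), and Ireb2 had Clock and Rps6ka3 (both 0.96). Fth1 had Gpr137 (0.88) and Fam241b (0.86). Ftl1 had H13 (0.97) and Tmem54 (0.96). Epas1 had the weakest matches, Fam193b (0.82) and Rnd3 (0.79). These are the highest of 9755 values for each gene and carry no test.

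Beyond the 9 genes, 7 lists of iron, haem and hypoxia genes named 91 symbols, of which 88 were in the table and 80 were tested. In B+A0 against AOS0, 2 rose and 2 fell, 5% of the 80 beside 3.64% of all tested genes, with a median log2 fold change of 0.06 beside -0.01. In B+A10 against AOS10 and in B+A10 against AOS0, 1 rose and none fell, 1.25% of the 80 in each, beside 0.162% and 0.957% of all tested genes. No listed gene passed edgeR in AOS10 against AOS0, in B+A10 against B+A0 or in the interaction, where 6, 10 and 8 of the 80 had an unadjusted p under 0.05, beside 6.23%, 9.81% and 6.85% of all tested genes. DESeq2 called 2, 2 and 0 of them in these comparisons, and limma on log2(FPKM + 1) called 0 in each.

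The pair that DESeq2 called in AOS10 against AOS0 were Mt1 and Mt2, which encode metal-binding metallothioneins and are named here after their values were seen. Mt1 was at 184, 239 and 237 CPM in AOS0, 471, 623 and 361 in AOS10, 239, 280 and 226 in B+A0, and 285, 411 and 234 in B+A10. Mt2 was at 122, 116 and 143 CPM in AOS0, 298, 437 and 222 in AOS10, 109, 144 and 94.0 in B+A0, and 162, 240 and 143 in B+A10. For both genes all AOS10 libraries lay above all AOS0 libraries. The log2 fold changes were 1.14 for Mt1 (SE 0.22, adjusted p = 0.126, edgeR) and 1.33 for Mt2 (SE 0.24, adjusted p = 0.119, edgeR), short of the threshold. Both passed with DESeq2 (adjusted p = 7.89e-05 and 2.7e-05), with edgeR fitted on only both groups (0.0417 each), with the replicate number as a block (0.0221 and 0.0332), and without AOS10 replicate 3 (0.045 and 0.0374). Neither passed with limma, with no filter or a stricter one, with edgeR on the DESeq2 scaling, or with any other single library left out. The 2 that DESeq2 called in B+A10 against B+A0 were Ndrg1 (log2 fold change 0.87, adjusted p = 0.0301) and Slc25a37 (0.44, adjusted p = 0.0193), the second a mitochondrial iron importer. Ndrg1 was at 83.9 to 98.5 CPM in B+A0 and widely spread in B+A10, at 118 to 254 (mean 167, SD 75.8). Slc25a37 was at 102 to 124 CPM in B+A0 and 139 to 175 in B+A10. Neither gene passed in any other fit of this comparison.

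Of 9 tested genes of systemic iron control, 1 fell in B+A0 against AOS0. Trf, the plasma iron carrier transferrin, was at 1.55, 2.03 and 1.85 CPM in AOS0 and 0.753, 0.536 and 0.364 in B+A0. These groups did not overlap, and the counts behind them were 24 to 31 and 6 to 12. Trf fell by 1.71 on the log2 scale (SE 0.33, adjusted p = 0.0211, edgeR). It no longer passed when any 1 of AOS0 replicates 1, 2 and 3 (adjusted p = 0.0594, 0.053 and 0.0711) or of B+A0 replicates 2 and 3 (0.0671 and 0.109) was left out. Hamp, the gene of the hormone hepcidin, was not among the genes tested.

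Of 11 tested genes of cellular iron sensing and ferritin turnover, 1 fell. Fbxl5, the iron-binding part of the ubiquitin ligase that removes the protein made from Ireb2, was at 87.7, 77.1 and 83.1 CPM in AOS0 and 69.3, 61.9 and 57.5 in B+A0, without overlap. It fell by 0.39 on the log2 scale (SE 0.09, adjusted p = 0.0373, edgeR). Of 14 alternative fits, 7 no longer called it. These were a fit of only both groups (adjusted p = 0.0653), the fit with replicate number as a block (0.0723), and those without AOS0 replicates 1, 2 or 3 (0.126, 0.0596 and 0.115) or B+A0 replicates 2 or 3 (0.104 and 0.174).

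Of 21 tested genes of mitochondrial iron, iron-sulfur clusters and haem synthesis, 1 rose and none fell, with a median log2 fold change of 0.08. Cpox, the coproporphyrinogen oxidase of haem synthesis, was at 59.6, 67.5 and 56.8 CPM in AOS0 and 79.7, 85.6 and 78.9 in B+A0, again without overlap. It rose by 0.41 on the log2 scale (SE 0.08, adjusted p = 0.0198, edgeR). It was no longer called in the fit of only both groups (adjusted p = 0.0534), nor without AOS0 replicates 1 or 3 (0.0793 and 0.0818) or B+A0 replicates 2 or 3 (0.0677 and 0.0696).

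Of 15 tested hypoxia-inducible targets, 1 rose and none fell. P4ha1, a prolyl hydroxylase of collagen, was at 4.47, 3.74 and 4.14 CPM in AOS0, 5.90, 4.41 and 5.41 in AOS10, 9.41, 10.4 and 15.9 in B+A0, and 21.4, 11.5 and 19.3 in B+A10. All libraries with busulfan lay above all libraries without it. P4ha1 rose by 1.53 on the log2 scale in B+A0 against AOS0 (SE 0.26, adjusted p = 0.0129, edgeR). It rose by 1.73 in B+A10 against AOS10 (SE 0.25, adjusted p = 0.0274, edgeR) and by 2.08 in B+A10 against AOS0 (SE 0.26, adjusted p = 0.00422, edgeR). The first call did not hold with AOS0 replicates 1 or 3 left out (adjusted p = 0.057 and 0.0518), nor with B+A0 replicate 3 left out (0.0664). The second was lost in a fit of only both groups (0.109), with limma on log2(FPKM + 1) (0.05), and without AOS10 replicates 1, 2 or 3 (0.138, 0.178 and 0.117) or B+A10 replicate 1 (0.164). The third was kept in 14 of 14 alternatives. The list as a whole had a median log2 fold change of 0.01 in B+A0 against AOS0, beside -0.01 for all tested genes.

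No gene was called in the other 3 lists in B+A0 against AOS0. Among 9 tested genes of haem uptake, export and breakdown, the smallest p-values belonged to Slc46a1, a folate and haem carrier (log2 fold change -0.48, adjusted p = 0.27, edgeR), and Hmox1, the inducible haem oxygenase (0.70, adjusted p = 0.343). Among 11 other metal reductases, oxidases and transporters they belonged to Mon1a (0.25, adjusted p = 0.265, edgeR) and to the copper exporter Atp7a (0.17, adjusted p = 0.453). Among 4 secreted iron binders and metallothioneins, Ltf, which encodes lactoferrin, had 0.83 (adjusted p = 0.348, edgeR) and Lcn2, a siderophore-binding protein, had 0.68 (adjusted p = 0.471).

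**Figure D5:**
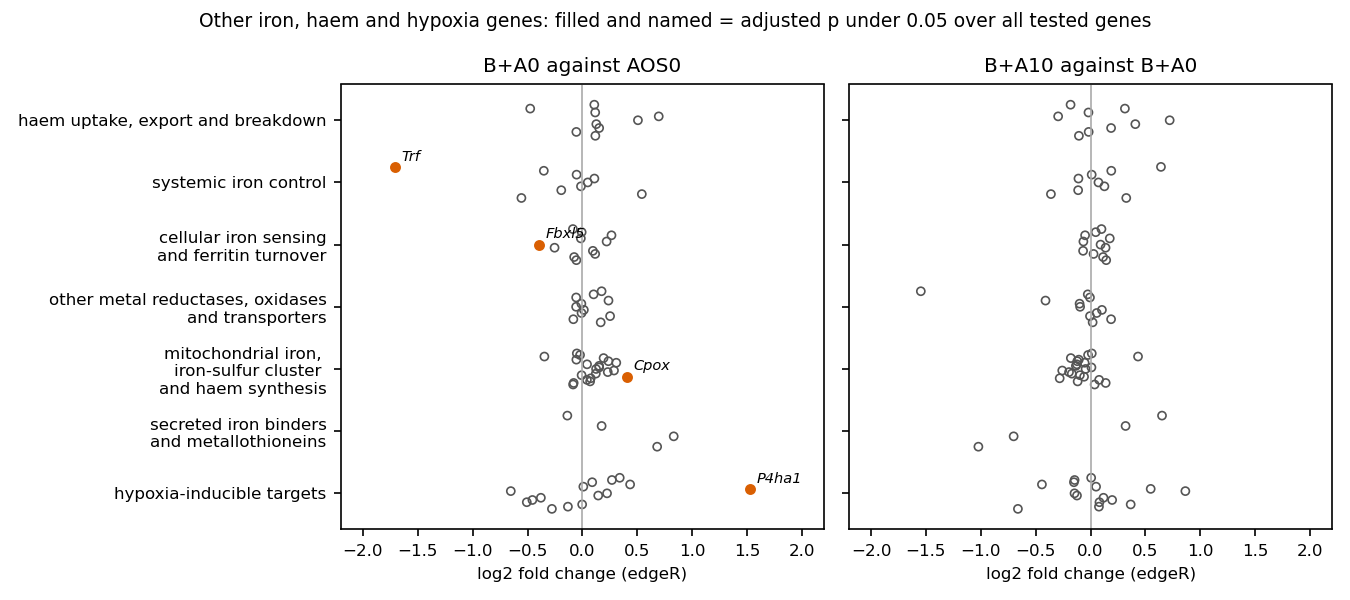
Log2 fold changes (edgeR) of the 80 tested genes of the 7 lists in B+A0 against AOS0 (left) and B+A10 against B+A0 (right), 1 circle per gene. Filled, named circles passed the threshold: Trf and Fbxl5 fell and Cpox and P4ha1 rose on the left, and none passed on the right.

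Markers of other cell types also differed between groups. Of 10 tested T and natural killer cell markers, 6 fell in B+A0 against AOS0 (Cd4 and Itgae among them), with a median log2 fold change of -1.70 over the 10. Of all tested genes, 3.64% were called in either direction in that comparison, with a median of -0.01. All 10 of these markers were above 0 in B+A10 against B+A0 (median 1.13), 8 had an unadjusted p under 0.05 and none was called by edgeR. In the interaction 9 had an unadjusted p under 0.05 (median 1.59) and none was called. Of all tested genes, 9.81% and 6.85% had an unadjusted p under 0.05 by edgeR in these comparisons, with a median of 0.01 in each. Erythroid markers summed to 7.61 to 28.4 CPM in AOS0 and 3.14 to 6.97 in B+A0, with AOS0 replicate 3 the highest and 2 of 8 genes detected in every library. Mertk, a receptor for dying cells that was on the macrophage list, rose from 47.0 ± 7.10 CPM in AOS0 to 79.7 ± 8.28 in B+A10 (SD, n = 3; log2 fold change 0.76, adjusted p = 0.0178, edgeR). Endothelial, smooth muscle and pancreatic acinar markers stayed below 5 CPM in sum in all libraries. The part of these cell types in the iron gene levels was not tested.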

How the data were processed

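RNA-seq libraries of mouse small intestine were described by 1 table for all samples. Per the file headers it holds a read count and an expression value per gene and library; the deposited counts are partly not whole, so they are expected counts, and were rounded. The expression values have no unit per the file headers; as deposited they were taken as FPKM because, over 5071 genes, count divided by value tracked the summed count of each library to within 0.151%. The submitters' processing notes name mm10 as the build; the aligner and counter were not stated. The table's 8 group-average columns were left aside.

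Counts of all 12 libraries were fitted together with edgeR 4.0.16 (filterByExpr, TMM, quasi-likelihood test, Benjamini-Hochberg threshold 0.05) in R 4.3.3. Alternatives were DESeq2 1.42.0, limma 3.58.1, other filters and scaling, a replicate block, and leaving out each library. Permutation tests used R, and exact tests scipy 1.17.1. Gene positions are from RefSeq GRCm38.p6 and hairpins from GENCODE M21. The genes and lists were chosen with earlier results of these data known. Named genes were all 9 genes, listed genes passing the threshold (up to 4 per list and comparison) or otherwise the 2 with the smallest p in B+A0 against AOS0, the 2 most similar genes for each, and up to 3 markers a list. One of the similar genes is not reported here.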

Additional observations from a re-analysis of the deposited data

Results flagged for a closer look

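Epas1 differed from AOS0 in one direction after busulfan without AOS and from AOS10 in the other after busulfan with AOS. All 3 B+A0 libraries lay below all AOS0 libraries, and all 3 B+A10 libraries lay above all AOS10 libraries, in TMM-scaled CPM. In FPKM the second pair of groups overlapped, with B+A10 replicate 2 at 2.64 and AOS10 replicates 1 and 3 at 2.71 and 2.68. The difference between both effects was 0.40 on the log2 scale (SE 0.15, unadjusted p = 0.0214) and did not pass after adjustment (adjusted p = 0.67, edgeR). It ranged from 0.31 to 0.46 over 19 alternative fits, none of which passed, with adjusted p-values from 0.413 to 0.985.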

How the results depend on the processing

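The number of the 9 genes called stayed at 0 in every comparison and alternative except 3. Without B+A0 replicate 1 it was 1 in B+A0 against AOS0 (Heph, log2 fold change -0.50), so the range when leaving out a library was 0 to 1. That fit called 1099 of 12496 tested genes. In B+A10 against AOS0 the number was 1 without B+A10 replicate 3 (Slc40a1, -1.61, again 0 to 1 over libraries left out). That fit called 763 of 12498 tested genes. The number was also 1 there with a replicate block, the replicate number as a term (Slc40a1, -1.18, SE 0.20, adjusted p = 0.0298, edgeR). The cause was not tested. The labels do not say that the numbers pair libraries: deviations of same-numbered libraries correlated between -0.16 and 0.17, and 2 of 12 libraries correlated best with their own number. Under the block the genes called over all tested genes numbered 193 (449 without it) in B+A0 against AOS0, 3 (20) in B+A10 against AOS10, 15 (0) in AOS10 against AOS0, 4 (0) in B+A10 against B+A0 and 83 (118) in B+A10 against AOS0. Leaving out 1 library gave 21 to 1099, 0 to 61, 0 to 28, 0 to 51 and 12 to 763 in the same order, and 0 to 1 for the interaction (0). DESeq2 called 1025, 138, 63, 76 and 444. A fit of only both groups called 241, 0, 62, 0 and 18. Without a filter on low counts the counts were 461, 40, 8, 5 and 151; limma on log2(FPKM + 1) called 455, 2, 0, 0 and 98, and with a pseudocount of 0.1 it called 482, 7, 0, 0 and 97. Over 54 pairs of gene and comparison, 795 alternative values were computed: 710 kept their sign and side of the threshold, 82 changed sign with neither value past it, and 3 were now past it. Cybrd1 had too few counts for the filter of 5 CPM in 3 libraries. The fit of only the groups compared does not exist for the interaction. Depth limits what can be said of Cybrd1.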
